A study of Mus musculus with 4 samples.

Results

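Wnt ligands and R-spondins are secreted proteins, and the cells that make them set where Wnt signals start. The sources of 10 such genes were measured in the noses of mouse embryos at embryonic day 14.5: Wnt4, Wnt5a, Wnt5b, Wnt6, Wnt10a, Wnt11, Rspo1, Rspo2, Rspo3 and Rspo4. They were taken by symbol from the 32285 genes of the deposited tables, and each symbol matched 1 gene. All 10 were read in 13739 cells of 15863 barcodes, namely those in which 500 or more genes were detected and no more than 10% of UMIs were mitochondrial (a UMI marks 1 captured molecule).

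The data were single-cell RNA sequencing of whole embryonic noses, with 2 control and 2 mutant libraries. The series design gives the controls as yap flox/flox;taz flox/flox and the mutants as Sox10cre;yap flox/WT;taz flox/flox, so that 1 Yap allele stayed wild type in the mutants. The sample labels differ for the controls: they name the strain C57Bl/6J and call the libraries wild type, and they give the mutants the transgene Tg(Sox10-cre)1Wdr with the alleles Yapflox and Tazflox, on C57Bl/6J. Which description of the controls holds was not settled, and floxed alleles in both groups or in 1 group cannot be told apart here. Yap (gene Yap1) and Taz (gene Wwtr1) are transcriptional co-activators that bind DNA through TEAD factors. The Cre acts where the Sox10 promoter is or was active, which includes the neural crest and its glia. No label says whether a library is 1 embryo or a pool, so p-values measure the spread between libraries.

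As background, Wnt proteins bind Frizzled receptors with the co-receptors Lrp5 or Lrp6 and stabilise beta-catenin, or act through Ror and Ryk receptors without it. R-spondins bind Lgr4, Lgr5 and Lgr6 and hold back the ligases Znrf3 and Rnf43, which otherwise remove Frizzled from the cell surface. They therefore amplify a Wnt signal that is already there. In the face, epithelial Wnts act on the mesenchyme beneath, and R-spondins are mostly known as mesenchymal products.

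The libraries held 2474 to 4195 kept cells, with a median of 5282 to 8549 UMIs per cell. Cells were assigned to gates by counting detected marker genes, none of which is a Wnt or R-spondin. The mesenchyme gate held 1870 to 2925 cells per library, the epithelium gate 131 to 413, cartilage 72 to 158 and bone 35 to 152. The epithelium gate was divided into keratinocyte cells (81 to 242 per library), nasal lining cells with respiratory or olfactory markers (10 to 88, the 10 being in control 2) and other epithelium that met neither definition (40 to 91). Levels are CPM, the UMIs of a gene per 1000000 UMIs of the gate. Cartilage and bone cells also reached the mesenchyme gate's minimum in 72.8 to 100% of cells, and the 12 mesenchyme markers summed to 5760 to 12500 CPM there, 6562 to 7786 CPM in mesenchyme and 172 to 311 CPM in epithelium. Values are listed throughout in the order control 1, control 2, mutant 1, mutant 2. In all cells Yap1 stood at 65.0, 65.2, 56.4 and 56.0 CPM and Wwtr1 at 118, 145, 123 and 132 CPM. These 3-prime counts need not cover the deleted exons, so they do not check the deletion. Sox10 itself was at 0.218 to 0.482 CPM in the mesenchyme gate and at 269 to 445 CPM in the glia gate. In these data, as in any dissociated tissue, fewer cells of a kind and less RNA per cell cannot be told apart at the level of all cells.

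Promoter sequence is shown for 1 gene of each main source, the epithelial Wnt6 and the mesenchymal Wnt11, since their levels in the 2 tissues stood in opposite order. Each is the 250 bases before the gene's start in RefSeq on GRCm38.p6, chr1:74771642-74771891 for Wnt6 and chr7:98834862-98835111 for Wnt11, both on the + strand. Capitals mark matches to motifs: ATCAAAG, the reverse of the TCF/LEF letters CTTTGAT, and the TATA box letters TATAAA.
Wnt6: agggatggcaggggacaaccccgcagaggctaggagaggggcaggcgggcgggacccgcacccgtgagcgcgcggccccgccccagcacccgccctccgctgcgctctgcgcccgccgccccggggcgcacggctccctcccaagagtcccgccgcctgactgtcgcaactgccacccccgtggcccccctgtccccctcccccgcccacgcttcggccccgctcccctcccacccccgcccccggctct
Wnt11: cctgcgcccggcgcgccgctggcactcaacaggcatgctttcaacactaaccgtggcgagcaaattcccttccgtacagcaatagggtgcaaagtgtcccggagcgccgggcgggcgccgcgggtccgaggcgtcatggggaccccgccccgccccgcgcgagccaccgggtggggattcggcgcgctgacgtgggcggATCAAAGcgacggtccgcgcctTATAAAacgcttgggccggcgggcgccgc
The Wnt11 window held the TCF/LEF letters at -51 and the TATA letters at -29 from the start. A second window of Wnt11, at an alternative start (chr7:98838595-98838844), held neither. The Wnt6 window held neither, nor the TEAD letters GGAATG, on either strand. Of 32851 promoter windows of this length, 3.21% held the TCF/LEF letters, 12.4% the TATA letters and 12.6% the TEAD letters. Promoters were matched for 6 of the 10 genes, in 9 windows with alternative starts included, and 0 of the 9 held the TEAD letters. Apart from Wnt11, only a window of Wnt5b, at an alternative start, held TCF/LEF letters, at -71. A match is a description of the letters in this window and not of a site in use.

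Wnt6 came from keratinocytes. Wnt6 is a ligand of surface ectoderm. Its level in the keratinocyte gate was 164.5, 240, 169 and 196 CPM, and 47.9 to 59.3% of those cells had a UMI (22.7 to 27.2% after thinning each cell to 2000 UMIs). In nasal lining epithelium it was 0, 0, 1.32 and 4.34 CPM. The 2 ranges lay far apart in all 4 libraries. The 40 to 91 epithelium cells per library that met neither definition held 48.3, 75.0, 71.4 and 35.8 CPM, between these levels. In mesenchyme Wnt6 was low, at 4.20, 5.82, 5.61 and 6.02 CPM, above the 0, 0, 3.76 and 1.67 CPM of macrophages in the same libraries. The shares of cells with a UMI overlapped, at 2.70 to 4.00% of mesenchyme and 0 to 4.35% of macrophages, the latter from 46 to 78 cells per library.

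A further source of Wnt6 was the glia gate, in 2 of the 4 libraries. Its level there was 91.5, 13.6, 78.7 and 7.66 CPM, from 31, 3, 27 and 1 UMIs. Control 1 and mutant 1 were high and the other two low, so the groups overlapped completely. UMIs were found in 14 of 35, 1 of 25, 12 of 30 and 1 of 18 cells. Among the Wnt6-positive glia, 11 of 14 in control 1 and 12 of 12 in mutant 1 also had a Sox10 UMI. The 13 keratinocyte markers summed to 58.7 to 96.2 CPM in the glia gate against 9380 to 12915 CPM in keratinocytes, with 7 to 10 of them at 0 in each library. The gates themselves fixed part of this contrast. Glia cells that also passed the epithelium gate were set aside, and Krt5, Krt14, Krt15, Trp63 and Perp are markers of both epithelium and keratinocytes. Whether the glial Wnt6 UMIs were carried over from keratinocytes was not tested.

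Wnt10a, a ligand of ectodermal appendages such as teeth and hair, lies next to Wnt6: Wnt6 spans 74771892 to 74785322 and Wnt10a 74791516 to 74804179 on chromosome 1 (GRCm38, + strand), 6.193 kb apart. Its level in keratinocytes was 17.9, 18.9, 23.0 and 23.9 CPM, and only 1 UMI was found in all nasal lining cells, a ratio of 85.8 (exact 95% counting interval 15.2 to 3410, which covers counting error only). Unlike Wnt6 it had a skeletal source: the bone gate held 8.41, 2.21, 16.3 and 8.13 CPM, from 14, 1, 13 and 9 UMIs, and mesenchyme 0.654 to 1.84 CPM. The bone range lay above the mesenchyme range, although control 2 rested on 1 UMI.

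Wnt4 was found across the whole epithelium, as was Wnt5b at lower levels. Wnt5b stood at 13.6 to 19.9 CPM in keratinocytes, 7.28 to 24.9 in nasal lining cells and 14.4 to 34.7 in other epithelium. Wnt4 is a ligand known for roles in kidney and gonad and in many epithelia. Its level in the epithelium gate was 186, 205, 172 and 229 CPM, in 60 to 68.4% of cells (23.1 to 32.6% thinned). Keratinocytes held 220, 240, 172 and 253 CPM and nasal lining cells 138, 84.7, 153 and 180 CPM, so that these 2 neighbours in the order overlapped. In mesenchyme the level was 18.3, 20.4, 9.39 and 18.0 CPM. In macrophages it was 9.31, 3.58, 1.88 and 1.67 CPM, below the mesenchyme of the same library each time, while the shares of cells overlapped (5.98 to 8.34% of mesenchyme, 1.28 to 8.45% of macrophages, median depth 5087 to 8292 and 7467 to 10516 UMIs).

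**Figure D1:**
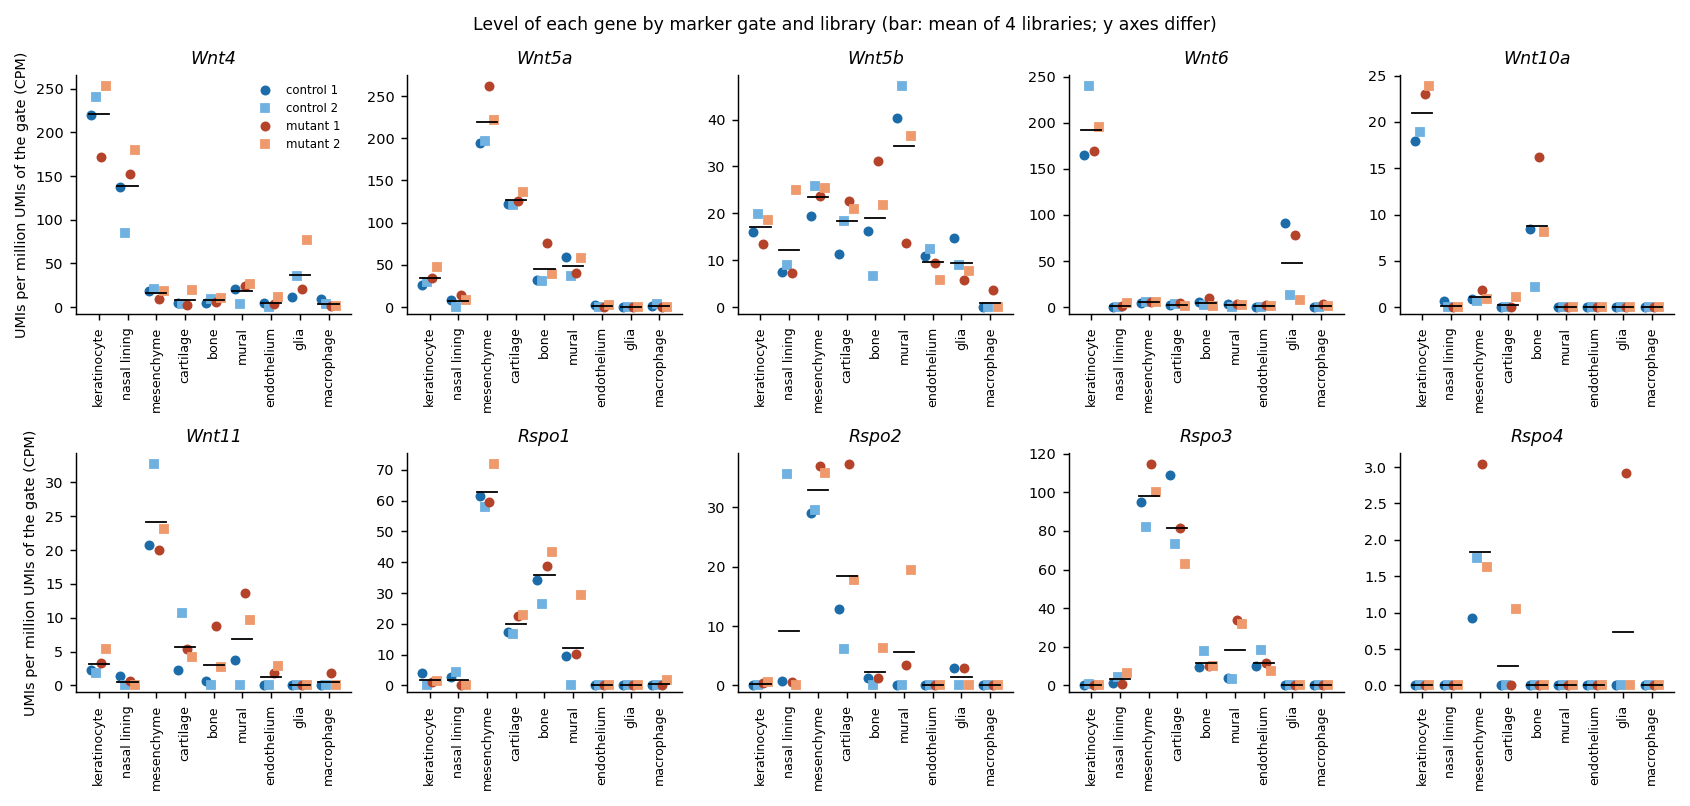
Level of each gene in 9 marker gates, with 1 point per library (blue control, red and orange mutant) and the mean of 4 libraries as a bar, in CPM on linear axes that differ between panels. Wnt6 and Wnt10a stand in keratinocytes and not in nasal lining cells, and among these 9 gates Wnt5a, Wnt11 and all 4 R-spondins are highest in mesenchyme by their means; the neuron gate, with 9 to 24 cells per library, is not shown.

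Wnt5a was the mesenchymal Wnt. It acts mainly through Ror receptors in outgrowth and cell polarity. Its level in mesenchyme was 194, 197, 262 and 222 CPM, in 52.4 to 68.4% of cells (27.8 to 36.2% thinned), against 0 to 1.79% of macrophages. Cartilage came next at 123, 121, 125 and 137 CPM, without overlap with mesenchyme. Mural cells of blood vessels held 37.1 to 59.4 CPM and bone 31.0 to 76.3, which overlapped, and keratinocytes 25.7 to 47.3 CPM. No UMI of Wnt5a was found in 108 glia cells, which allows a share of up to 2.78% of cells with a UMI.

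Wnt5b and Wnt11 were lower. Wnt5b, a close relative of Wnt5a, stood at 19.4, 25.8, 23.7 and 25.4 CPM in mesenchyme and at 40.3, 47.2, 13.6 and 36.5 CPM in mural cells. From mural cells down to glia, the range of each gate overlapped that of the next in the order, so no single top source stood out. Mesenchyme still lay above endothelium (5.86 to 12.3 CPM) and glia (5.83 to 14.8 CPM), and macrophages held 0 to 3.76 CPM. Wnt11, which guides cell movement, was more restricted: 20.8, 32.7, 20.04 and 23.2 CPM in mesenchyme, 2.27 to 10.7 in cartilage and 1.84 to 4.36 in epithelium. Mesenchyme stood above each of the other gates plotted for Wnt11 without overlap.

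The R-spondins came mostly from mesenchyme. Mesenchyme held 83.1, 73.8, 91.9 and 89.2% of all R-spondin UMIs of the 4 genes. It also held 70.0, 75.6, 72.6 and 69.7% of the kept cells, so that the shares were close in control 2. Epithelium held 22, 12, 8 and 14 UMIs of 4592, 3195, 4447 and 3899. Cells in no gate held 2.87 to 31.5% of the Rspo2 UMIs of a library, at 35.3 to 351 CPM. For Rspo3 they held 0.545 to 27.4%, at 21.8 to 828 CPM. At least 1 R-spondin UMI was found in 50.9 to 60.1% of mesenchyme cells and in 1.79 to 3.82% of epithelium cells, although epithelium cells were the deeper (median 7123 to 11802 UMIs). The neuron gate, with 24, 9, 16 and 18 cells, held 1105, 0, 0 and 0 CPM of Rspo3, with 192 of the 214 UMIs in 1 cell. UMIs of 2 or more R-spondin genes were found in 11.3 to 19.0% of mesenchyme cells.

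Rspo1 and Rspo3 extended into the skeleton in opposite ways. Rspo1 stood at 61.4, 57.8, 59.6 and 71.9 CPM in mesenchyme, at 34.2, 26.5, 38.8 and 43.4 in bone and at 17.4, 16.8, 22.7 and 23.0 in cartilage, with no overlap between the 3. Rspo3, the R-spondin of vessels and limb mesenchyme, stood at 94.8, 82.2, 115 and 100.0 CPM in mesenchyme and at 109, 73.4, 81.3 and 62.7 in cartilage, which overlapped. Its level in bone was 9.61, 17.7, 10.0 and 9.94 CPM, far below both. Rspo3 was the one R-spondin found in the endothelium gate, at 9.84, 18.4, 11.4 and 7.32 CPM. Rspo1 and Rspo2 had no UMI in 175 endothelium cells, which allows a share of up to 1.71%.

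Rspo2, needed for limb and craniofacial growth, stood at 29.0, 29.6, 37.0 and 35.8 CPM in mesenchyme and at 12.9, 6.11, 37.3 and 17.8 in cartilage, where mutant 1 was high and the range reached that of mesenchyme. In bone it was 0 to 6.32 CPM. Its 8 UMIs in the nasal lining cells of control 2 came from 1 cell. Rspo4, known from nail formation, was near the limit of detection: 19, 24, 58 and 27 UMIs in mesenchyme (0.928, 1.74, 3.04 and 1.63 CPM) and 0 in 1253 epithelium cells. Its mesenchymal level was at least 9.49-fold higher than in epithelium, taking 3 counts over the 4 libraries as the floor. The gene Rspo4os lies antisense over Rspo4, and other genes overlap Wnt5a, Wnt5b, Wnt6, Wnt11, Rspo1 and Rspo3. Whether counting used strand is not given in the sources used here, so reads of overlapping genes may be shared.

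**Figure D2:**
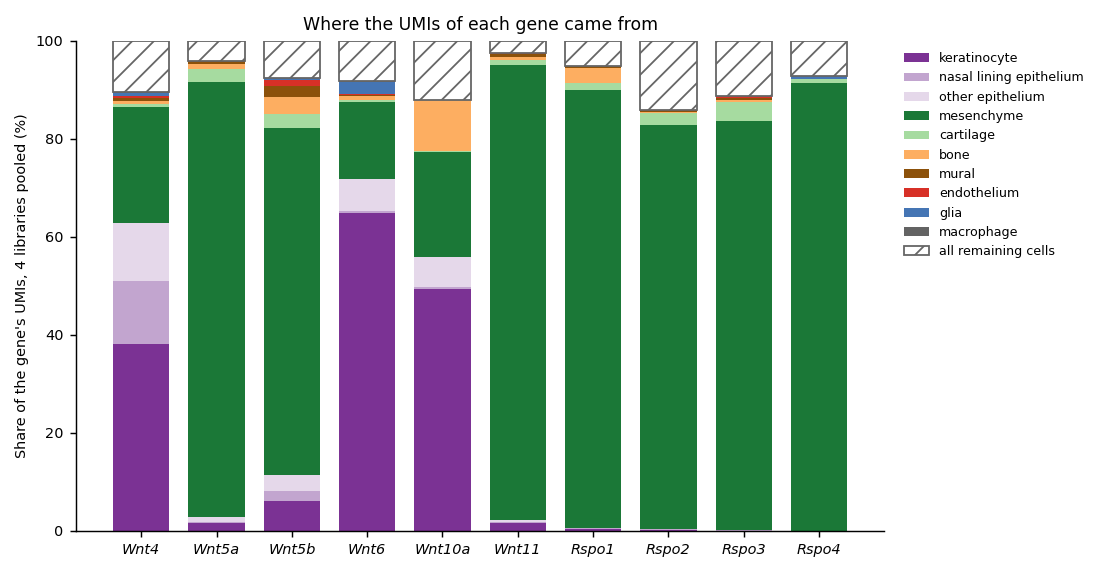
Share of each gene's UMIs (percent, 4 libraries pooled) that came from each gate, as stacked bars. Mesenchyme supplied 82.4 to 91.4% of the UMIs of each R-spondin and 88.8% of Wnt5a, and epithelium 71.8% of Wnt6, 55.9% of Wnt10a and 62.9% of Wnt4. For these last 3 genes mesenchyme supplied 15.7, 21.3 and 23.6%. In control 2, 333 of 671 Wnt4 UMIs came from epithelium and 280 from mesenchyme. Of the 13739 kept cells, 9820 were in the mesenchyme gate and 1253 in the epithelium gate.

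The differences between gates were tested within libraries. Between epithelium and mesenchyme, 3 genes (Wnt6, Wnt10a, Wnt4) were higher and 6 lower of 9 tested, where 62.6% of all 15117 genes were called, 31.3% in each direction. Wnt6 was higher by 4.43 ± 0.12 (log2, SE, adjusted p 7.8e-10), Wnt4 by 3.62 ± 0.13 and Wnt10a by 3.63 ± 0.28. Rspo3 was lower, at -6.26 ± 0.22, as were Rspo1 and Rspo2, both at -5.36, Wnt11 at -3.16 ± 0.21 and Wnt5a at -2.83 ± 0.12. The Rspo2 value rests on 12 epithelial UMIs: it was -6.83 without control 2, -6.77 and -6.88 with stricter cells or a stricter gate, and -11.33 without the cells with most UMIs. Rspo1 moved to -6.28 without control 1 and to -4.76 without the cells with most UMIs, and Rspo3 to -6.89 without mutant 2. Wnt5b was lower by a small amount, -0.44 ± 0.13 (adjusted p 0.017), which was lost without control 1 (adjusted p 0.056), without mutant 1 (0.083) and without the cells with most UMIs (0.17). The median of the 9 was -2.83, against 0.00 for all genes.

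Between keratinocyte and nasal lining cells, 4 genes were higher and 0 lower of 5 tested, where 32.1% of 10402 genes were called, 16.4% higher and 15.7% lower. Wnt6 differed by 6.94 ± 0.33, Wnt10a by 6.12 ± 0.59 and Wnt5a by 1.87 ± 0.29. Control 2 gave 10 nasal lining cells, and the fitted values rest on 6 nasal lining UMIs for Wnt6 and 1 for Wnt10a. Wnt6 was 7.66 with the stricter gate, 6.02 without the cells with most UMIs and 8.03 without mutant 2. Wnt10a was 7.98 without control 1, 5.51 without mutant 1 and 7.26 without the cells with most UMIs, where Wnt5a was 1.16. Wnt4 was higher by 0.69 ± 0.16 (adjusted p 0.0068), a call lost without control 1 (0.065) and without the cells with most UMIs (0.25). Wnt5b did not pass (0.61 ± 0.32, adjusted p 0.18).

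More members were called against mesenchyme in bone than in cartilage, but the share of all genes called was larger too (35.2% against 18.3%). Wnt10a was not tested in cartilage. In bone, Wnt10a was higher by 3.22 ± 0.43 (adjusted p 1.2e-05), and 6 of 9 tested were lower, where 35.2% of 13854 genes were called, 17.0% higher and 18.3% lower. The 6 were Rspo2 (-3.56 ± 0.35), Rspo3 (-3.04 ± 0.18), Wnt11 (-2.88 ± 0.41), Wnt5a (-2.18 ± 0.13), Wnt4 (-1.02 ± 0.27) and Rspo1 (-0.64 ± 0.13). Rspo1 was -1.52 and Wnt11 -4.89 with the stricter bone gate, Wnt11 was -4.06 without mutant 1, Rspo2 was -4.76 without mutant 2, and the Wnt4 call was lost without control 1 (-0.67, adjusted p 0.14). Wnt5b and Wnt6 did not pass.

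In cartilage, 0 members were higher and 5 of 8 lower, where 18.3% of 14011 genes were called, 9.14% higher and 9.21% lower. The values were -2.24 ± 0.27 for Wnt11, -1.65 ± 0.15 for Rspo1, -0.76 ± 0.09 for Wnt5a, -0.85 ± 0.23 for Rspo2 and -1.05 ± 0.34 for Wnt4. The Rspo2 call was lost without control 1 (adjusted p 0.11), without mutant 2 (0.079) and with the stricter gate (0.075). The Wnt4 call was lost without control 1 (0.28), control 2 (0.15) or mutant 1 (0.093), with DESeq2 (0.066), the stricter gate (0.14) and without the cells with most UMIs (0.11), and its value was -2.02 without mutant 2. Rspo3 did not pass (-0.23 ± 0.13, adjusted p 0.26), and passed without control 1 (-0.45, adjusted p 0.036).

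**Figure D3:**
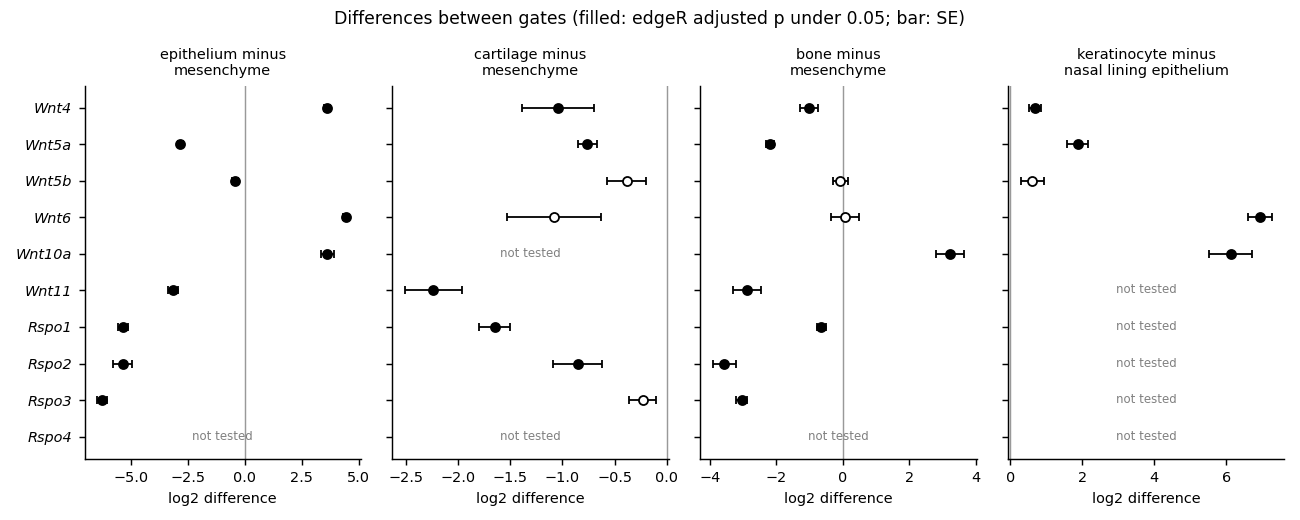
Log2 difference of each gene between pairs of gates, with SE as bars, filled where the edgeR adjusted p was under 0.05. Wnt6, Wnt10a and Wnt4 lie on the epithelial side and Rspo1, Rspo2 and Rspo3 at the far mesenchymal side, and Wnt10a is the one gene higher in bone.

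Within the mesenchyme Rspo1 and Rspo2 were each lower in cells with the other, though not absent from them. In cells with a UMI of Rspo1, the level of Rspo2 was 0.43, 0.33, 0.51 and 0.46 times that in cells without one. The reverse held too: the level of Rspo1 in Rspo2-positive cells was 0.43, 0.41, 0.60 and 0.54 times that in the other cells. Wnt4 went with Rspo1 and against Rspo2, with ratios of 1.77 to 2.26 in Rspo1-positive cells and 0.14 to 0.47 in Rspo2-positive cells. Wnt4 was also higher in Wnt11-positive cells, by a ratio of 1.92 to 3.16, and so was Rspo1, by 1.32 to 1.85. Rspo3 showed no such division with Wnt5a or Rspo2: in Rspo3-positive cells Wnt5a stood at 0.95 to 1.04 times its level elsewhere, and Rspo2 at 0.71 to 1.07. Other pairs of members were measured too and are not given here. All ratios are of CPM within a library and are given as descriptions, since cells are not replicates.

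Transcription factors and other regional genes described these cells further, 2 per gene by the largest mean ratio. Rspo1 and Rspo4 were highest with Crabp1, a retinoic acid binding protein: the ratio in Crabp1-positive cells was 1.82 to 2.29 for Rspo1 and 5.01 to 10.5 for Rspo4. The second gene was Osr2 for Rspo1 (1.34 to 1.47) and Pou3f4 for Rspo4 (2.32 to 9.61). Rspo2 was highest with Pax9, a factor of palate and tooth mesenchyme (3.00, 6.24, 1.87 and 2.11), and with Tbx22 (0.86 to 4.45), where mutant 1 was below 1. Wnt5a was highest with Msx1 (1.55 to 1.90) and Osr1 (1.58 to 1.67). Wnt11 was highest with Zic1 (1.23 to 2.33) and Osr2 (1.41 to 1.98). For Rspo3 the ratios were small, 1.08 to 1.63 with Runx2 and 0.99 to 1.44 with Alx1, and Wnt5b gave 0.45 to 2.68 with Tbx22 and 1.21 to 1.67 with Foxl2.

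In epithelium the basal keratins led for all 3 genes. The ratio with Krt15 was 6.99 to 11.4 for Wnt6, 9.98 to 22.4 for Wnt10a and 1.12 to 3.12 for Wnt4. With Krt14 it was 2.49 to 26.6, 4.63 to 35.9 and 1.35 to 1.95. Krt14 and Krt15 are among the markers of the keratinocyte gate, so these ratios restate the gate comparison at the level of single cells.

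**Figure D4:**
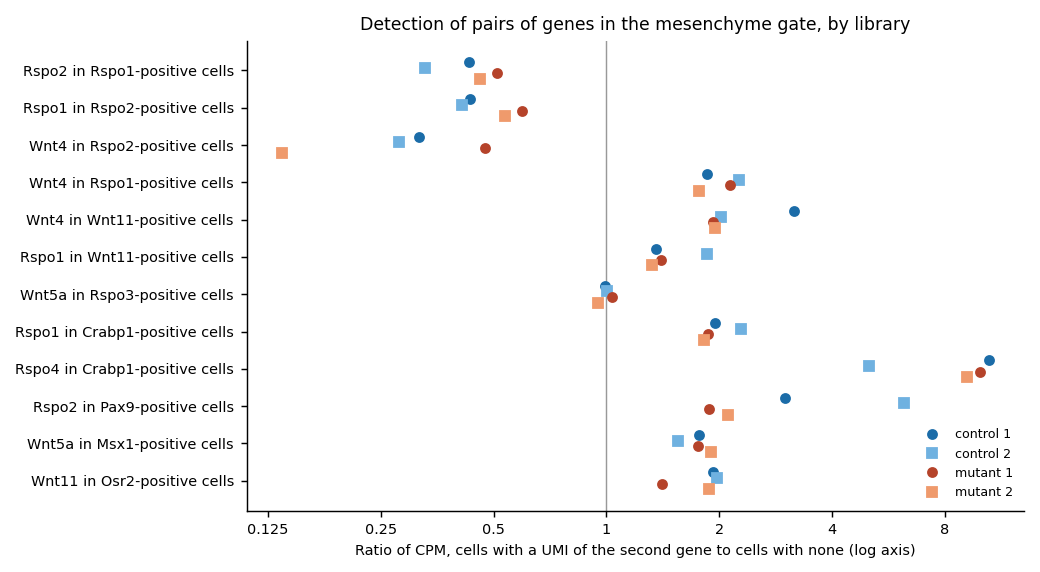
Ratio of a gene's CPM in mesenchyme cells with at least 1 UMI of a second gene to that in cells with none, on a log axis, with 1 point per library. Rspo1 and Rspo2 lie below 1 against each other in all 4 libraries, and Rspo4 lies at 5.01 to 10.5 in Crabp1-positive cells.

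Likeness to other genes was measured as Pearson's r of log2(CPM + 5) over 34 sums of cells by gate and library in 10 gates, among 11705 genes. These points share libraries and gates, so r is a description. The gene most like Wnt10a was another Wnt, Wnt10b (r = 0.95), followed by Adamts18 (0.91) and the R-spondin receptor Lgr6 (0.90). Wnt10b, on chromosome 15, was at 19.9 to 28.7 CPM in keratinocytes, 8.41 to 11.3 in bone and 0 in nasal lining cells. Wnt5a was most like Sfrp2 (0.95), a secreted Wnt inhibitor, then Kcnb2 (0.94) and A630012P03Rik (0.93). Rspo2 was most like Shox2 (0.94), a factor of the anterior palate, then Sgcz (0.91) and Gabrb1 (0.90). Rspo1 was most like Mab21l2 (0.97), Col6a2 (0.96) and Lhx8 (0.96), and Rspo3 like Eln (0.94), which encodes elastin, Pou3f3 (0.94) and Cacng7 (0.93). Wnt4 was most like Hspb8 (0.96), the epithelial adhesion gene Epcam (0.95) and Klc3 (0.95), and Wnt6 like Ppp1r14c (0.93), Lratd1 (0.92) and Tfap2a (0.91), a factor of surface ectoderm. The values were lower for Wnt5b with Gpc4 (0.88), Map1lc3a (0.85) and Arhgap42 (0.84), and for Wnt11 with Cdh18 (0.87), the agouti gene a (0.86) and Osr1 (0.86). For Rspo4 they were 0.90 with Gm20754, 0.84 with Tmem163 and 0.80 with Gm45323.

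The receptors were read within a list of 42 other pathway genes chosen by function. These are RNA levels, and where the ligands act was not tested. Between epithelium and mesenchyme, 17 of 38 tested were higher and 14 lower, where 31.3% of all genes were called in each direction and 62.6% in all, so that many calls are found in any list. Of the 5 genes of the R-spondin receptors and their ligases, 4 were higher in epithelium and Lgr5 lower. Rnf43 stood at 50.6 to 52.8 CPM in epithelium and 1.32 to 3.56 in mesenchyme (4.79 on the log2 scale), and Lgr4 at 120 to 153 and 52.2 to 84.7 CPM (1.07). Lgr5 stood at 24.8 to 40.5 CPM in epithelium and 46.9 to 64.3 in mesenchyme (-0.68). Ror2, the receptor known for Wnt5a, stood at 7.90 to 16.1 CPM in epithelium and 153 to 178 in mesenchyme (-3.66), and Ror1 was lower too (-1.58). Ptk7 (-0.86) and Lrp6 (-0.38) were lower by less, Ryk was higher (0.43) and Lrp5 did not pass.

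Of 10 Frizzled genes, 6 were higher and 2 lower in epithelium than in mesenchyme, against the same 62.6% over all genes. Fzd6, a polarity receptor, stood at 28.9 to 41.1 CPM in epithelium and 3.20 to 6.83 in mesenchyme (2.79), Fzd10 at 20.7 to 42.4 and 6.92 to 10.3 CPM (1.74), and Fzd3 at 93.5 to 103 and 37.1 to 48.2 CPM (1.33). Fzd8 (1.64), Fzd5 (1.43) and Fzd7 (0.49) were higher too. Fzd2 stood at 63.9 to 78.8 CPM in epithelium and 126 to 148 in mesenchyme (-0.95), and Fzd1 was lower as well (-0.83). Fzd4 and Fzd9 did not pass. Fzd9 stood apart in cartilage, at 33.3 to 54.3 CPM against 1.53 to 1.87 in mesenchyme, a log2 difference of 4.78.

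Of the 13 other Wnts, 5 of 9 tested were higher in epithelium (Wnt3, Wnt3a, Wnt7a, Wnt7b, Wnt10b) and Wnt2 and Wnt9a lower. Over all genes, 31.3% were called in each direction and 62.6% in all. Wnt3, needed for outgrowth of the face, stood at 27.0 to 34.9 CPM in keratinocytes and 0 in nasal lining cells, and Wnt7b at 40.3 to 52.0 and 12.4 to 25.1 CPM. Of 6 genes known to respond to Wnt signals, 0 were higher in epithelium and 5 lower by edgeR, against the same 31.3%. Nkd1 was lower by the most (4.91 to 6.88 CPM in epithelium and 73.6 to 92.5 in mesenchyme, -3.77). Lef1 stood at 59.6 to 108 CPM in keratinocytes, which overlapped its 70.5 to 145 CPM in mesenchyme, and at 3.31 to 35.7 CPM in nasal lining cells. Znrf3 and Rnf43, listed with the ligases, were higher in epithelium. The 6 are a chosen list, and the Wnt response of either tissue as a whole was not tested. In bone, Tcf7 (3.95) and Notum (2.51) were higher than in mesenchyme, and Axin2, Lef1, Nkd1 and Sp5 lower. There, 17.0% of all genes were called higher and 18.3% lower. Wls, which carries Wnts to the cell surface, was found in each of the gates plotted, at 118 to 188 CPM in mesenchyme and 172 to 247 in epithelium.

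No member differed between mutant and control at the threshold. In mesenchyme 0 of 10 members and 0 of 15989 genes passed (0%) with edgeR. At unadjusted p under 0.05 there were 2 members and 1240 genes, and DESeq2 called 0 members and 56 genes. Wnt5a was higher in both mutants (194 and 197 against 262 and 222 CPM), a log2 difference of 0.27 ± 0.11 (adjusted p 0.63). Rspo2 was higher in both too (29.0 and 29.6 against 37.0 and 35.8 CPM), by 0.27 ± 0.09 (adjusted p 0.57), and Rspo3 by 0.24 ± 0.12 (adjusted p 0.66). In all, 4 members lay above and 1 below the controls in mesenchyme without overlap. Of 15784 genes with at least 40 UMIs, 26.3% lay above and 14.4% below in this way. The median log2 difference of the 10 members was 0.21 and that of all genes 0.00.

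Wnt4 was the member lower in both mutants in mesenchyme, at 18.3 and 20.4 CPM against 9.39 and 18.0. The log2 difference was -0.54 ± 0.26 (adjusted p 0.66, between 0.019 and 1.00 over 11 alternatives). It passed without a filter on low counts (-0.54, adjusted p 0.019) and without mutant 2 (-1.07, adjusted p 0.044), where the remaining mutant is assumed to vary as the controls do. Wnt11 was -0.34 ± 0.21 (adjusted p 0.71). Control 2 was the high library at 32.7 CPM: without control 1 the value was -0.64 (adjusted p 0.021), and without control 2 it was 0.017. Leaving out control 1 raised the number of genes called in mesenchyme from 0 to 671, control 2 to 26, mutant 1 to 5 and mutant 2 to 53.

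In epithelium 0 of 5 tested members and 0 of 13030 genes (0%) passed with edgeR. At unadjusted p under 0.05 there were 0 members and 650 genes, and DESeq2 called 0 members and 8 genes. Wnt4 gave 0.01 ± 0.16, Wnt5a 0.22 ± 0.22, Wnt5b 0.18 ± 0.31 and Wnt10a 0.06 ± 0.25. Wnt6 stood at 98.8, 172, 100.2 and 110 CPM, with only control 2 apart, and gave -0.36 ± 0.25 (adjusted p 0.93). Its value was -0.76 (adjusted p 0.038) without control 1 and 0.068 without control 2. Control 2 had the fewest epithelium cells (131), of which 10 were nasal lining cells, and its keratinocytes alone were also the highest in Wnt6 at 240 CPM. Without control 1, 263 genes were called in epithelium. The difference between the genotype effects in epithelium and mesenchyme was fitted on 16283 genes, among them all 10 members: 0 members and 0 genes (0%) passed with edgeR. Rspo4 had 0 UMIs in epithelium, so its difference could not be estimated (SE 4604) and it could not have passed. Rspo2, Rspo3 and Wnt11 rested on 12, 20 and 39 epithelial UMIs and were not tested in epithelium alone. At unadjusted p under 0.05 there were 3 members and 906 genes, and DESeq2 called 0 members and 2 genes. The 3 were Wnt4, Wnt6 and Rspo1, and Rspo1 had only 24 UMIs in epithelium (-1.51 ± 0.61, adjusted p 0.84). The difference was 0.60 ± 0.17 for Wnt4 (unadjusted p 0.0062, adjusted p 0.72 with edgeR; adjusted p 0.027 without a filter on low counts) and -0.52 ± 0.18 for Wnt6 (unadjusted p 0.018, adjusted p 0.80).

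In the skeleton the counts were smaller. In cartilage 0 of 5 tested members and 0 of 9079 genes (0%) passed with edgeR, with 1 member and 433 genes at unadjusted p under 0.05, and DESeq2 called 0 of both. The 1 was Rspo2, at 12.9, 6.11, 37.3 and 17.8 CPM, from 17, 4, 28 and 17 UMIs. Its log2 difference was 1.32 ± 0.47 (adjusted p 1.00). Rspo3 was -0.42 ± 0.25 in cartilage (adjusted p 1.00). Without control 1, 170 genes were called in cartilage, and without control 2, 31. In bone 0 of 3 tested members and 0 of 8943 genes (0%) passed with edgeR, with 1 member and 461 genes at unadjusted p under 0.05, and DESeq2 called 0 of both. The 1 was Wnt5a, at 32.4 and 31.0 against 76.3 and 38.8 CPM (0.74 ± 0.33, adjusted p 0.97). Wnt5b gave 0.87 ± 0.41 and Rspo1 0.31 ± 0.27 in bone. Leaving out a library raised the genes called in bone to 86 (control 1), 10 (control 2), 2 (mutant 1) and 10 (mutant 2). In endothelium 22 of 7322 genes (0.300%) were called, 0.0819% higher and 0.219% lower, and no member had the counts to be tested.

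**Figure D5:**
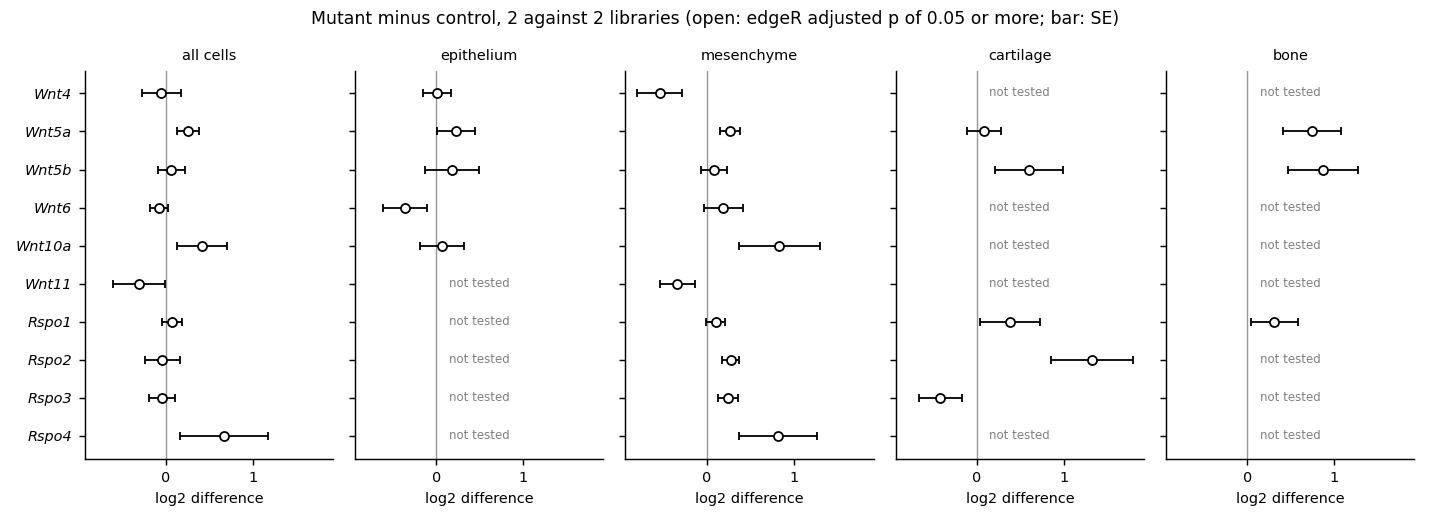
Log2 difference between 2 mutant and 2 control libraries for each gene in all cells and in 4 gates, on a shared axis with SE as bars. All points are open, since the edgeR adjusted p was 0.05 or more for every gene shown, and genes with too few counts are marked as not tested.

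In all cells together 0 of 10 members and 0 of 18080 genes (0%) passed with edgeR, with 0 members and 883 genes at unadjusted p under 0.05, and DESeq2 called 0 members and 30 genes. Without control 1, 410 genes were called, and without control 2, 1. Rspo2 (-0.04 ± 0.21) and Rspo3 (-0.05 ± 0.15) depended on few cells outside epithelium, mesenchyme and skeleton. These carried at least 4 of 8 genes chosen after seeing the data (Sox2ot, Rfx4, Rmst, Igfbpl1, Hes5, Lmx1a, Dcc, Lrp1b), several of them known from neural progenitors. There were 9, 15, 5 and 0 such cells, of which 7, 15, 4 and 0 were in no gate and 2 of control 1 in the neuron gate. They held 12.3, 25.8, 2.04 and 0% of all Rspo2 UMIs and 9.01, 23.0, 1.80 and 0% of all Rspo3 UMIs. A single cell of control 1, in the neuron gate, held 65 UMIs of Rspo1, 88 of Rspo2 and 192 of Rspo3. Without these cells the differences were 0.26 for Rspo2 and 0.19 for Rspo3, so that the sign turned.

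Of the 42 pathway genes, 0 of 33 tested passed between mutant and control in mesenchyme with edgeR, with 6 at unadjusted p under 0.05, and DESeq2 called 0. In epithelium 0 of 35 passed, with 3 at unadjusted p under 0.05, in cartilage 0 of 19 with 1, and in bone 0 of 21 with 0, and DESeq2 called 0 in each. Over all genes, unadjusted edgeR p was under 0.05 for 1240 of 15989 in mesenchyme and 650 of 13030 in epithelium. The counts were 433 of 9079 in cartilage and 461 of 8943 in bone. On counts simulated from the mesenchyme sums, 76% of 100 genes changed by 1 on the log2 scale and 99% of 100 genes changed by 2 were recovered among 16015 genes. Another 5 genes were called without a change. The simulation gave every gene the same fixed spread between libraries, not estimated from these data, and changed only genes above a minimum mean count. These shares are therefore not the power of the real comparison. Smaller differences such as those of Wnt5a and Rspo2 in mesenchyme were not simulated, and a p that misses the threshold does not show that the groups are alike.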

How the data were processed

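Single cells of whole embryonic noses were profiled in 4 libraries, 2 control and 2 mutant, with 3-prime droplet chemistry after papain dissociation and freezing, per the labels' protocols. Raw UMI counts were deposited as 1 matrix per library. The file headers name Cell Ranger 8.0.1, whereas the submitters' processing notes list Cell Ranger 4, Seurat 4.3.0 and the build mm10. The labels name 2 sequencing providers without assigning libraries, so provider and group cannot be told apart, and mention further samples, not analysed here. The features and barcodes tables hold names and no measurement.

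Kept cells had 500 or more genes and no more than 10% of UMIs from mitochondrial genes (Python 3.11.15). No doublet caller was run. A cell that passed 2 gates was set aside (35 to 127 per library), except that cartilage, bone and mural cells could also reach the mesenchyme minimum, and the 5% of cells with most UMIs were left out in an alternative. Any 2 libraries shared 3 to 5 cell barcodes. Gates needed at least 4 of 14 epithelium markers, 5 of 12 mesenchyme, 5 of 14 cartilage, 5 of 12 bone, 4 of 10 endothelium or macrophage, 5 of 10 mural and 4 of 9 glia markers. Keratinocytes needed 6 of 13 markers with at most 2 nasal markers, and nasal lining cells 4 of 15. One marker below the minimum stood 397 cells for mesenchyme, 110 for epithelium, 228 for cartilage and 241 for bone. These minimums were set after the distributions were seen, and the members and gene lists were chosen with earlier results of these data known. Thinning to 2000 UMIs left out 28 to 51 mesenchyme and 1 to 14 epithelium cells per library.

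Raw counts were summed per library and gate and tested with edgeR 4.0.16 (R 4.3.3; TMM, its default filter on low counts, quasi-likelihood test, Benjamini-Hochberg adjustment over all genes tested, threshold 0.05). Gates were compared with library as a block, and mutant with control without one. Members outside a test failed its filter on low counts. Named genes were all 10 members, receptors and other pathway genes by level, the 3 genes most like each member and the 2 regional genes with the largest ratio among those with at least 30 positive cells in every library. The pathway genes named beside the receptors were chosen after their values were seen. Limits for a count of 0 take 3 counts. Alternatives were DESeq2 1.42.0, RLE factors, no filter, stricter gates, stricter cells (1000 genes, 5% mitochondrial), a replicate block, and leaving out each library. The scripts were tested on simulated data. Gene positions are from GENCODE on GRCm38, and promoters from RefSeq.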

Additional observations from a re-analysis of the deposited data

How the results depend on the processing

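Differences between gates were the stable part. Of 260 values of members against mesenchyme under alternatives, 241 kept their direction and side of the threshold, 13 lost the call, 1 gained it and 5 turned, and of 50 between keratinocyte and nasal lining cells 48 and 2. The turned values were near 0: for bone, Wnt6 gave -0.053 with DESeq2 and -0.33 to 0.47 with a library left out, and Wnt5b 0.14 without the cells with most UMIs and -0.29 to 0.11 with a library left out. Genes called fell to between 1706 and 2300 for cartilage against mesenchyme with a library left out, and lay between 2129 and 4196 for keratinocyte against nasal lining cells, the low ends without control 1. The share of cells with a UMI moved for all 10 members when thinned to 2000 UMIs, as fewer UMIs per cell must do.

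The number of genes called between mutant and control was not stable, and the cause was not tested. DESeq2 gave 30 (all cells), 8 (epithelium), 56 (mesenchyme), 5 (endothelium) and 2 (genotype effect in epithelium against mesenchyme). No filter on low counts gave 10, 296, 569, 103 and 217 in that order, and 48 in cartilage and 78 in bone. Without the cells with most UMIs the counts were 17 in epithelium, 2 in mesenchyme, 1 in bone, 0 in endothelium and 14 for the genotype effect, where the stricter gate gave 1; in endothelium the stricter gate gave 8. Keratinocyte cells alone gave 6. With a library left out the counts ranged from 0 to 410 (all cells), 0 to 263 (epithelium), 5 to 671 (mesenchyme), 0 to 170 (cartilage), 2 to 86 (bone), 40 to 221 (endothelium) and 0 to 222 (genotype effect), each highest without control 1. The replicate block gave 2 in epithelium, 74 in mesenchyme, 2 in cartilage, 80 in bone and 68 in endothelium, against 0, 0, 0, 0 and 22. Replicate numbers share only a number: the correlation of same-numbered deviations was between -0.09 and 0.08, and the block called no member.

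Of 368 member values between mutant and control, 330 kept direction and side, 4 gained the call and 34 turned. In all cells, Rspo2 was 0.015 with stricter cells, 0.031 without the cells with most UMIs and -0.32 to 0.29 with a library left out, and 0.26 without the cells with neural progenitor genes, where Rspo3 was 0.19. Without the cells with most UMIs, Wnt4 was 0.17, Wnt6 0.36 and Rspo3 0.038. With a library left out, ranges that crossed 0 were -0.30 to 0.25 for Wnt4, -0.13 to 0.26 for Wnt5b, -0.72 to 0.22 for Wnt11, -0.066 to 0.20 for Rspo1 and -0.22 to 0.13 for Rspo3. In epithelium Wnt4 was -0.048 without the cells with most UMIs, -0.013 with the replicate block and -0.13 in keratinocytes, where Wnt5b was -0.14; ranges with a library left out were -0.21 to 0.20 for Wnt4, -0.023 to 0.48 for Wnt5a, -0.29 to 0.56 for Wnt5b, -0.76 to 0.068 for Wnt6 and -0.24 to 0.26 for Wnt10a. In mesenchyme they were -0.11 to 0.30 for Wnt5b, -0.040 to 0.43 for Wnt6, -0.64 to 0.017 for Wnt11 and -0.033 to 0.22 for Rspo1. In cartilage Wnt5a was -0.026 without the cells with most UMIs and -0.0029 to 0.14 with a library left out. For the genotype effect in epithelium against mesenchyme, Wnt5a was 0.46 and Wnt5b -0.083 without the cells with most UMIs, Wnt5b was -0.0053 with the stricter gate, and the ranges with a library left out were -0.42 to 0.33 and -0.37 to 0.38.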

Other observations

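Rspo3 in the mural gate stood at 3.83 and 3.37 CPM in the controls and at 34.0 and 31.6 CPM in the mutants, from 2, 1, 10 and 13 UMIs. These came from 2, 1, 4 and 5 of 52, 28, 24 and 42 cells, and 1 cell held 5 of the 10 UMIs in mutant 1 and another 7 of the 13 in mutant 2. Wnt11 in the same gate stood at 3.83 and 0 CPM in the controls and at 13.6 and 9.74 in the mutants, from 2, 0, 4 and 4 UMIs. Of the members, 5 lay above and 1 below the controls in this gate without overlap. The 5 rested on 9 to 30 UMIs each. The 1 was Wnt5b, with a mean of 43.7 CPM in the controls and 25.1 in the mutants, from 54 UMIs. The share of all genes lying apart in this way was not computed for the mural gate. Mural cells surround small vessels. The 12 mesenchyme markers summed to 3414 and 2412 CPM in the mural gate of the controls and to 3759 and 4760 CPM in the mutants, with none of the 12 at 0, and 67.9 to 81.0% of mural cells had at least 5 of them. No fit was made for this gate, so the differences, and the part of the mesenchyme markers in them, were not tested.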
